A study of Mus musculus with 62 samples.

Results

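The 10 genes described here carry out antigen presentation by major histocompatibility complex (MHC) class I, the pathway by which a cell shows fragments of its own proteins to T cells. They were listed by mouse Entrez identifier as the heavy chains H2-K1 and H2-D1, the light chain B2m, the peptide transporter subunits Tap1 and Tap2, the loading factor Tapbp (tapasin), the immunoproteasome subunits Psmb8, Psmb9 and Psmb10, and the transcriptional activator Nlrc5. All 10 were listed in each of 3 count tables, the liver table with 16206 genes, the prefrontal cortex table with 17653 and the striatum table with 17874 (18821 genes in all), and all 10 passed the filter on low counts in every comparison.

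RNA was sequenced from female mice of C57BL/6, a common inbred strain, after oral dosing with the MARBLES mixture of polychlorinated biphenyls (PCBs, persistent industrial chemicals). Liver, prefrontal cortex and striatum libraries of a vehicle group (0 mg/kg) and of groups at 0.1, 1 and 6 mg/kg carry the same numbers in their titles, except that number 24 at 0.1 mg/kg has no liver library here. The labels do not say that a number marks 1 animal or that libraries come from separate animals, and libraries are named below by that number. The liver groups held 4, 4, 6 and 6 libraries, and the groups of each brain region 4, 5, 6 and 6, in order of dose. No genotype other than the strain and no age, duration or vehicle composition is stated in the labels used here, and each library is bulk RNA of a mixed tissue, taken as punches in the brain.

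Proteins are cut by the proteasome, and under interferon the Psmb8, Psmb9 and Psmb10 subunits replace the constitutive Psmb5, Psmb6 and Psmb7 to form the immunoproteasome. Tap1 and Tap2 carry the peptides into the endoplasmic reticulum, where Tapbp helps to load them onto a heavy chain paired with B2m. Nlrc5 acts at a promoter module shared by some of these genes, and resting neurons are known for low levels of the pathway.

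The letters of that module were searched in the promoters. RefSeq windows of assembly GRCm38.p6, from 250 bases before each annotated start and 300 bases long, were matched for 8 of the 10 genes. The windows of H2-K1, H2-D1 and B2m each held TGACG followed by ATTGG with 20 bases between, an arrangement found in 30 of 32851 promoter windows (0.0913%). The windows of the other matched members did not hold it. The motifs were searched on both strands, and TGACG alone was in 17.8% and ATTGG alone in 33.8% of the windows. The stretches below are on the gene's strand, with the matched motifs in capitals, and are shown because they carry that spacing in 3 of the genes. They lie at chr17:34000354-34000463 (H2-K1, minus strand), chr17:35262918-35263027 (H2-D1, plus strand) and chr2:122147543-122147643 (B2m, plus strand). The H2-K1 stretch lies before both RefSeq starts listed for that gene, and inside the outer bounds of the gene given further on, which reach past those starts.
H2-K1: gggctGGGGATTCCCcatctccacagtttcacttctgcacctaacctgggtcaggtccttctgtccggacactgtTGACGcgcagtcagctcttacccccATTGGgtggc
H2-D1: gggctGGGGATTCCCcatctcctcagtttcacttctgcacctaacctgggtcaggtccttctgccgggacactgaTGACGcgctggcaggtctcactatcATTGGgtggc
B2m: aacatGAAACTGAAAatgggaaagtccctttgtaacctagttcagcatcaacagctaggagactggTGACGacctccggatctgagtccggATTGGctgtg

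The H2-K1 and H2-D1 stretches were identical at 99 of 110 bases and both held GGGGA directly followed by TTCCC, the letters of a binding site for NF-kB, which were in 0.0852% of all windows. The B2m stretch held GAAA, any 2 bases and GAAA again, the letters of an interferon-stimulated element, which were in 2.98% of windows. Psmb9 and Tap1 are transcribed away from each other from a gap of 225 bases at chr17:34187331-34187555, printed on the Tap1 strand with the CCAAT letters (ATTGG on the Psmb9 strand) and TGACG in capitals because Tap1 is a gene whose level changed in the liver.
Psmb9-Tap1 gap: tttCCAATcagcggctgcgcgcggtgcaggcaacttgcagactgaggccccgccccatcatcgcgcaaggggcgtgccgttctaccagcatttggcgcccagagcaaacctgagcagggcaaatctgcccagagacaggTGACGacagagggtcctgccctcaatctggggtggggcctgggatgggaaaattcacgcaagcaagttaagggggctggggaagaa

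In GRCm38.p6 the members lie on chromosome 17, apart from B2m (chr2:122147687-122153082), Psmb10 (chr8:105935728-105938392) and Nlrc5 (chr8:94434335-94527272). Tapbp (chr17:33919478-33929290) and H2-K1 (chr17:33996012-34000619) stand at the start of the MHC and H2-D1 (chr17:35263094-35267497) farther along it. Psmb9 (chr17:34182030-34187330), Tap1 (chr17:34187556-34197225), Psmb8 (chr17:34198195-34201454) and Tap2 (chr17:34204479-34216321) follow one another within the MHC. H2-K1 and H2-D1 have near-identical relatives in the same region, and how the authors' counting treated reads that fit several of them is not given in the sources used here, so the split of counts among heavy chain genes is uncertain.

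Total counts per library ran from 7381179 to 10203247 for liver, from 8722232 to 12135200 for prefrontal cortex and from 8283032 to 12019651 for striatum. Levels below are CPM, a gene's count relative to the library's total, scaled by edgeR's trimmed mean of M values (TMM) within a tissue. Markers set the liver apart, with 6 hepatocyte genes summing to between 80900 and 181000 CPM there. They did not separate the brain regions cleanly: 4 cortical neuron genes summed to between 1280 and 2240 CPM in the prefrontal cortex and between 62.4 and 1610 CPM in the striatum, and 6 striatal neuron genes to between 857 and 2750 CPM and between 2510 and 6130 CPM. Of the hepatocyte genes, 4 were listed in the prefrontal cortex, summing to at most 35.1 CPM, and 3 in the striatum, summing to between 1.76 and 4100 CPM, where Alb, Fgb and Serpina1a were not listed. The 3 listed there were Apoa1, Ttr and Cyp2e1. In the striatum 4 choroid plexus genes summed to between 3.91 and 219 CPM, and both sums had their highest value at 1 mg/kg. The source of the hepatocyte sum in the striatum was not tested. As a check of exposure in the liver, Cyp2b10, a cytochrome P450 induced through the receptor CAR, was at 1.53 ± 0.621 CPM in vehicle (SD, n = 4) and ran from 11.4 to 247.1 CPM at 6 mg/kg, and Cyp1a2, a cytochrome P450 known to respond to dioxin-like PCBs, was at 347.2 ± 26.3 CPM in vehicle livers (SD, n = 4) and 941.5 ± 268 at 6 mg/kg (SD, n = 6), with no overlap.

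In vehicle mice all 10 genes were higher in the liver than in either brain region. H2-K1, the classical heavy chain at the K locus, was at 1678, 1795, 1922 and 1898 CPM in the 4 vehicle livers, at 25.2, 17.9, 26.6 and 30.6 CPM in the prefrontal cortex and at 34.6, 31.1, 37.4 and 40.2 CPM in the striatum libraries of the same numbers. Every liver library was far above every brain library. Psmb10, the gene with the smallest ratio of liver to prefrontal cortex, was at 72.6 ± 11.1 CPM in liver, 31.95 ± 4.01 in prefrontal cortex and 24.5 ± 3.44 in striatum (SD, n = 4 each), again with no overlap between liver and brain. Ratios of mean CPM between liver and prefrontal cortex ran from 2.27 for Psmb10 to 72.8 for H2-K1, and those between liver and striatum from 2.51 for Tapbp to 50.9 for H2-K1. The tissues were scaled separately for these levels. When liver and prefrontal cortex were scaled together the log2 differences were larger by a median of 1.05 over the members, and the fitted values then ran from 2.24 to 7.24.

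In edgeR's quasi-likelihood test with Benjamini-Hochberg adjustment over all genes, all 10 passed an adjusted p of 0.05 as higher in liver than in prefrontal cortex, where 80.7% of 14351 tested genes passed in either direction and 39.4% as higher. All 10 likewise passed as higher in liver than in striatum, where 80% passed in either direction and 38.5% as higher. In bulk RNA a lower level can come from fewer cells of a type or from less RNA per cell, and these cannot be told apart.

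**Figure D1:**
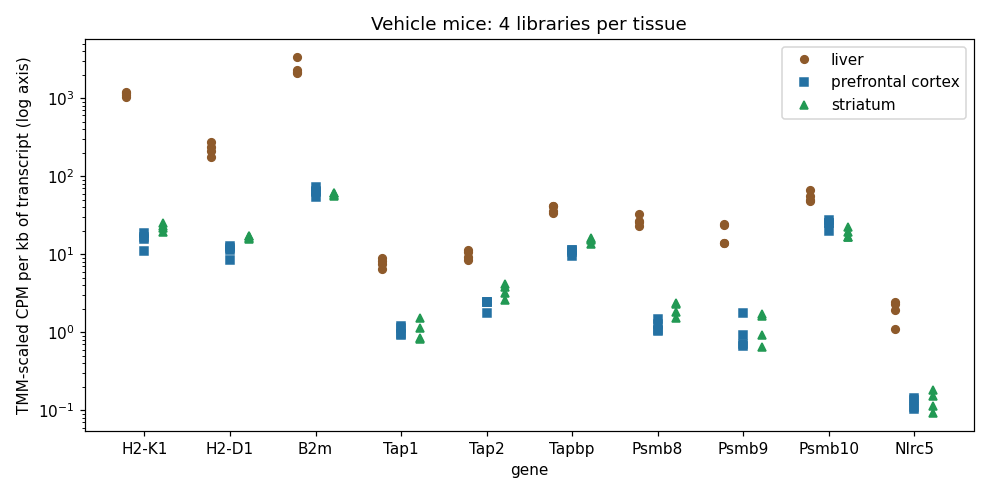
Level of each gene in vehicle mice, as TMM-scaled CPM per kb of transcript on a log axis, with 1 point for each of 4 libraries per tissue (liver brown, prefrontal cortex blue, striatum green). Liver points stand above brain points for every gene, and B2m is the highest and Nlrc5 the lowest gene in each tissue.

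Per kb of the longest coding transcript, which allows genes to be compared, B2m led in every tissue and Nlrc5 was last. In the vehicle liver B2m was at 2495 ± 610 CPM per kb, H2-K1 at 1126 ± 68.9 and H2-D1, the heavy chain at the D locus, at 224.1 ± 42 (SD, n = 4), with no overlap between neighbours. Psmb10 at 55.4, Tapbp at 37.9, Psmb8 at 27.2 and Psmb9 at 18.96 followed as means, and the libraries of Psmb8 and Psmb9 overlapped. Tap2 at 9.91 and Tap1 at 7.79 also overlapped, and Nlrc5 came last at 1.95. In the prefrontal cortex the order differed in that Psmb10, at 24.4 ± 3.06, came second, above H2-K1 at 15.5 ± 3.28 with no overlap. H2-K1, H2-D1 and Tapbp overlapped in turn there, as did Psmb8, Tap1 and Psmb9. In the striatum H2-K1 at 22.1, Psmb10 at 18.7, H2-D1 at 16.6 and Tapbp at 15.1 each overlapped with the next.

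Between the brain regions 2 of the 10 genes passed, both higher in the striatum of vehicle mice, where 20.8% of 15043 genes passed in either direction. This fit used no block for the title number, and the different calls with such a block are given further on. Tapbp was at 45.9, 39.1, 43.9 and 46.5 CPM in the striatum and 31.4, 27.6, 33.3 and 33.1 CPM in the prefrontal cortex, with no overlap (log2 difference 0.39 ± 0.106 SE, adjusted p = 0.00931 in edgeR). H2-D1 was at 33.7, 33.1, 35.8 and 36.5 CPM in the striatum and 23.7, 17.7, 25.5 and 26.8 CPM in the prefrontal cortex, also without overlap (0.48 ± 0.151 SE, adjusted p = 0.0253 in edgeR). H2-K1 differed by 0.43 ± 0.154 SE without passing (adjusted p = 0.0513 in edgeR) and passed in DESeq2 (adjusted p = 0.0346). Neither H2-D1 (adjusted p = 0.0754 in edgeR) nor Tapbp (adjusted p = 0.0587) passed without the libraries numbered 3, and H2-D1 did not pass without those numbered 4 (adjusted p = 0.130) or 7 (adjusted p = 0.0726).

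In the liver at 6 mg/kg, 2 of the 10 genes rose, the transporter subunit Tap1 by 1.68-fold and the activator Nlrc5 by 2.03-fold, and none fell. The heavy and light chain genes overlapped with vehicle and did not pass, and no immunoproteasome gene passed the test. Among 12968 tested liver genes 2.8% passed in either direction, 1.8% as higher and 0.995% as lower, and DESeq2 called 2 members as well. The 10 log2 fold changes had a median of 0.255 beside 0.023 over all tested genes, and 8 of them were above 0. Some of these signs changed with the covariates described below. In each tissue the comparisons at the 3 doses share the same 4 vehicle libraries.

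Tap1 was at 26.3, 19.2, 21.9 and 24.5 CPM in the vehicle livers and ran from 27.4 through a median of 39.6 to 46.6 CPM in the 6 livers at 6 mg/kg. All 6 were above the highest vehicle liver. The log2 fold change was 0.74 ± 0.199 SE (edgeR adjusted p = 0.0467), and Tap1 was the single member without overlap, which 6.76% of tested genes showed in either direction. At the lower doses Tap1 was at 34.7, 21.4, 30.3 and 20.9 CPM at 0.1 mg/kg, and from 19.3 through a median of 29.2 to 40.9 CPM at 1 mg/kg. Both of these groups overlapped with vehicle and with each other.

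Nlrc5 was at 14.6, 8.22, 18.7 and 17.6 CPM in vehicle livers and ran from 16.1 through a median of 32.9 to 41.01 CPM at 6 mg/kg. Of the 6 livers at 6 mg/kg, 5 were above the highest vehicle liver and 1 lay inside the vehicle range, so the groups overlapped. The log2 fold change was 1.02 ± 0.276 SE (edgeR adjusted p = 0.0481). At 0.1 mg/kg Nlrc5 was at 26.7, 21.96, 17.3 and 20.7 CPM, with 3 of 4 livers above every vehicle liver, and at 1 mg/kg it ran from 13.9 through 21.3 to 35.6 CPM. Neither lower dose passed.

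Both calls lay close to the threshold. The count fell to 0 without any 1 of the vehicle livers (numbers 3, 4, 7 and 8) or of livers 52, 53 and 58 at 6 mg/kg, to 1 (Tap1) without liver 54, and to 0 with the 2 groups alone or with no filter on low counts. Over all genes the calls also fell, from 363 to between 3 (without liver 4) and 241 (no filter on low counts) in these settings. Over all alternatives the adjusted p in edgeR or DESeq2 ran from 0.00903 to 0.9997 for Tap1 and from 0.00916 to 0.9997 for Nlrc5, while their log2 fold changes stayed positive, at 0.67 to 0.87 and 0.40 to 1.16.

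Other properties of the liver libraries moved with the dose group. The GC slope, a correlation over genes of transcript GC content with how far the library lies from the tissue mean, ran from -0.31 to -0.17 in vehicle and from -0.01 to 0.26 at 6 mg/kg, with no overlap. Transcripts of the members were 52.6% to 57.3% GC except for B2m at 41.2%. A clock index, log2 Dbp minus log2 Arntl, which follows the time of day, ran from 2.04 to 5.45 in vehicle, from 5.77 to 8.61 at the lower doses and from 6.58 to 8.48 at 6 mg/kg. With the GC slope as a covariate Tap1 was at 0.67 (adjusted p = 0.393 in edgeR) and Nlrc5 at 1.10 (adjusted p = 0.362), and with the clock index they were at 0.87 and 0.40 (adjusted p = 0.9997 for both). With either covariate 0 of 12968 tested genes passed, beside 363 without one. Other members changed sign, with the GC slope H2-D1 (-0.21), B2m (0.12), Tap2 (-0.12) and Psmb10 (-0.30). With the clock index these were H2-D1 (-0.13), Psmb8 (-0.19), Psmb9 (-0.23) and Psmb10 (-0.0219). Because neither property overlapped between the groups, its part and that of the dose cannot be told apart.

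Immune cells express the class I pathway strongly, and some of their markers were higher at 6 mg/kg. The sum of 6 general leukocyte genes ran from 41.8 to 47.8 CPM in vehicle livers and from 52.6 to 84.4 CPM at 6 mg/kg, without overlap, although 0 of the 6 passed in edgeR and 4 were higher at an unadjusted p under 0.05, which 24.2% of tested genes reached in either direction. The sum of 10 Kupffer cell and macrophage genes ran from 189 to 294 CPM and from 248 to 505 CPM, with 1 of 10 passing as higher, 5 higher at an unadjusted p under 0.05 and a median log2 fold change of 0.54. The 5 listed B cell genes summed to between 3.54 and 6.39 CPM in vehicle and between 5.1 and 17.6 CPM at 6 mg/kg, with 1 of 4 tested passing as higher, 2 higher at an unadjusted p under 0.05 and a median of 0.88, and Ighm was not listed. T and NK cell genes, all 12 of them listed and 4 tested with 0 passing in edgeR or at an unadjusted p under 0.05, summed to between 4.75 and 7.46 CPM and between 4.75 and 10.5 CPM. Red blood cell genes ran the other way, with 2 of 3 lower at an unadjusted p under 0.05, a median log2 fold change of -2.77 and sums between 47.8 and 3070 CPM in vehicle and between 69.3 and 230 CPM at 6 mg/kg. The part of these cells in the higher Tap1 and Nlrc5 levels was not tested.

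**Figure D2:**
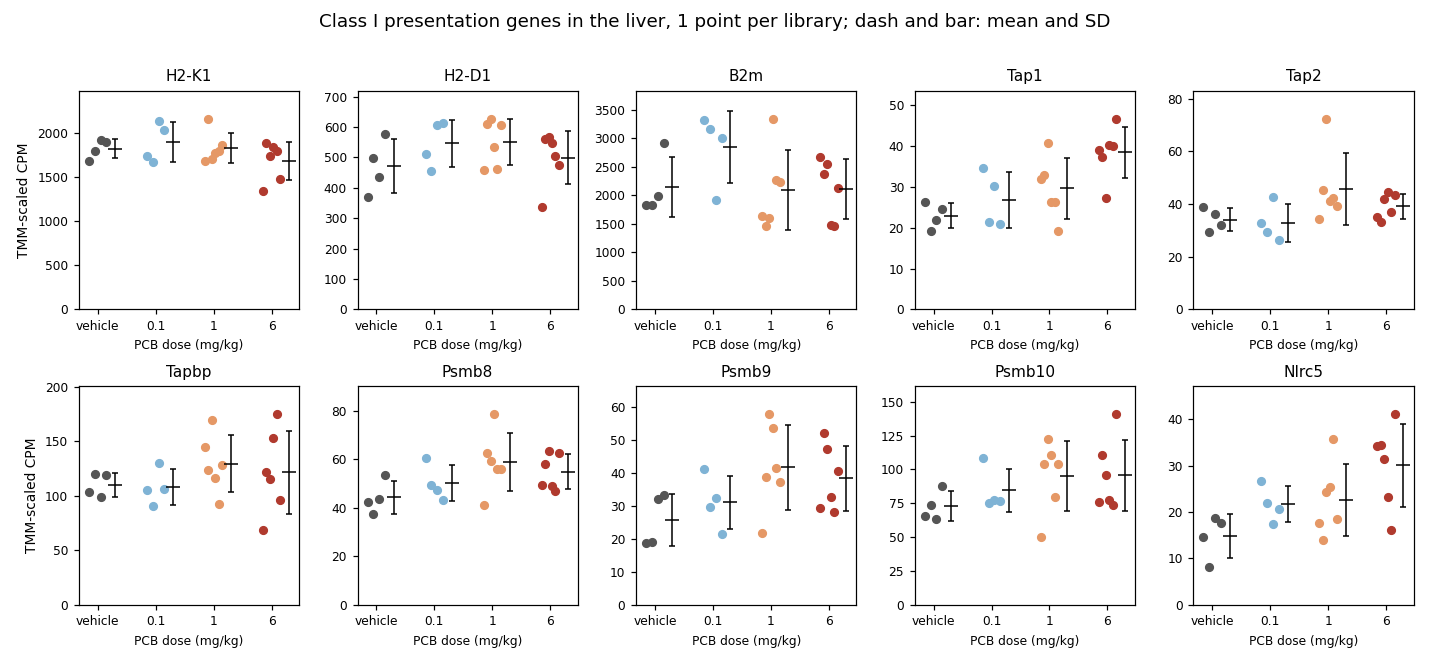
TMM-scaled CPM of the 10 genes in each liver library at 0 (vehicle), 0.1, 1 and 6 mg/kg, with the mean and SD beside each group of 4, 4, 6 and 6 points. All 6 Tap1 points at 6 mg/kg lie above the vehicle points, and those of H2-K1, H2-D1 and B2m overlap with vehicle.

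The heavy and light chain genes did not pass at 6 mg/kg in the liver. H2-K1 was at 1823 ± 112 CPM in vehicle (SD, n = 4) and ran from 1344 through 1764 to 1887 CPM at 6 mg/kg, a log2 difference of -0.12 ± 0.148 SE. H2-D1 ran from 370.4 to 577.6 CPM in vehicle and from 335.6 to 565.9 CPM at 6 mg/kg (0.08 ± 0.176 SE). B2m was at 1825, 1838, 1996 and 2924 CPM in vehicle and ran from 1471 through 2249 to 2681 CPM at 6 mg/kg (-0.02 ± 0.246 SE). The groups of all 3 genes overlapped.

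Of the loading genes, Tap2, the partner of Tap1, was at 34.1 ± 4.23 CPM in vehicle and 39.2 ± 4.74 at 6 mg/kg (log2 difference 0.20 ± 0.185 SE). Tapbp ran from 98.3 to 119.5 CPM in vehicle and averaged 121.4 ± 38.2 CPM at 6 mg/kg (0.14 ± 0.210 SE), with a spread from 68.2 to 174.4 CPM at 6 mg/kg that covered the whole vehicle range. Neither passed.

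Among the immunoproteasome genes Psmb9 had the highest fitted log2 fold change at 6 mg/kg without covariates, and the lowest with the clock index (-0.23). It was at 18.7, 18.8, 31.9 and 33.1 CPM in vehicle livers and ran from 28.1 through 36.5 to 51.9 CPM at 6 mg/kg, with overlap (log2 difference 0.58 ± 0.258 SE, adjusted p = 0.174 in edgeR). Psmb8 was at 44.3 ± 6.71 and 54.8 ± 7.25 CPM (0.31 ± 0.165 SE, adjusted p = 0.251 in edgeR), and Psmb10 at 72.6 ± 11.1 and 95.6 ± 26.3 CPM (0.40 ± 0.224 SE, adjusted p = 0.275 in edgeR).

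Set against the constitutive subunit that each replaces, per kb of transcript, Psmb8 was at 35.5% of Psmb5 in vehicle livers and 30.1% at 6 mg/kg, Psmb9 at 8.07% and 10.2% of Psmb6, and Psmb10 at 41.8% and 77.6% of Psmb7. As log2 ratios the Psmb10 values were -1.26 ± 0.21 in vehicle (SD, n = 4) and -0.37 ± 0.70 at 6 mg/kg (SD, n = 6), and the groups overlapped. The Psmb7 level itself ran from 147.1 to 159.4 CPM in vehicle and from 61.9 to 140.5 CPM at 6 mg/kg, without overlap. In the prefrontal cortex of vehicle mice Psmb8, Psmb9 and Psmb10 stood at 2.88%, 1.24% and 28.5% of their partners, and in the striatum at 4.5%, 1.12% and 21.4%.

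At 1 mg/kg 0 of the 10 genes passed in the liver in edgeR or DESeq2, as did 0% of all tested genes, and 4 members were higher at an unadjusted p under 0.05, which 8.44% of tested genes reached. These were Psmb9 at 0.70 ± 0.258, Nlrc5 at 0.61 ± 0.274, Tap2 at 0.42 ± 0.186 and Psmb8 at 0.41 ± 0.166 (log2 ± SE). At 0.1 mg/kg 0 members passed in either tool and 0 reached an unadjusted p under 0.05, with 0.0154% and 4.1% of tested genes doing so. Between 6 and 0.1 mg/kg 0 members passed in either tool, beside 0.0386% of tested genes, and Tap1 alone had an unadjusted p under 0.05 (12.8% of tested genes), with a log2 difference of 0.52 ± 0.197 SE.

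Over dose rank (0 to 3) Tap1 rose by 0.24 ± 0.0598 and Nlrc5 by 0.31 ± 0.0838 per rank on the log2 scale (SE, edgeR adjusted p = 0.0281 and 0.0383), 2 of 10 members beside 4.81% of tested genes in either direction, 2.85% as higher and 1.96% as lower. Psmb9 also had an unadjusted p under 0.05, as did 25.4% of tested genes. This count was 0 without any 1 of livers 3, 4 and 7 (vehicle) or 52 and 58 (6 mg/kg), 1 without any 1 of livers 8 (vehicle), 28, 29 (0.1 mg/kg), 53 and 54 (6 mg/kg), and 1 with dose in mg/kg, where 3.72% of tested genes passed. Over all genes the slope calls fell from 624 to between 79 (without liver 58) and 367 (without liver 29) in these left-out fits.

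**Figure D3:**
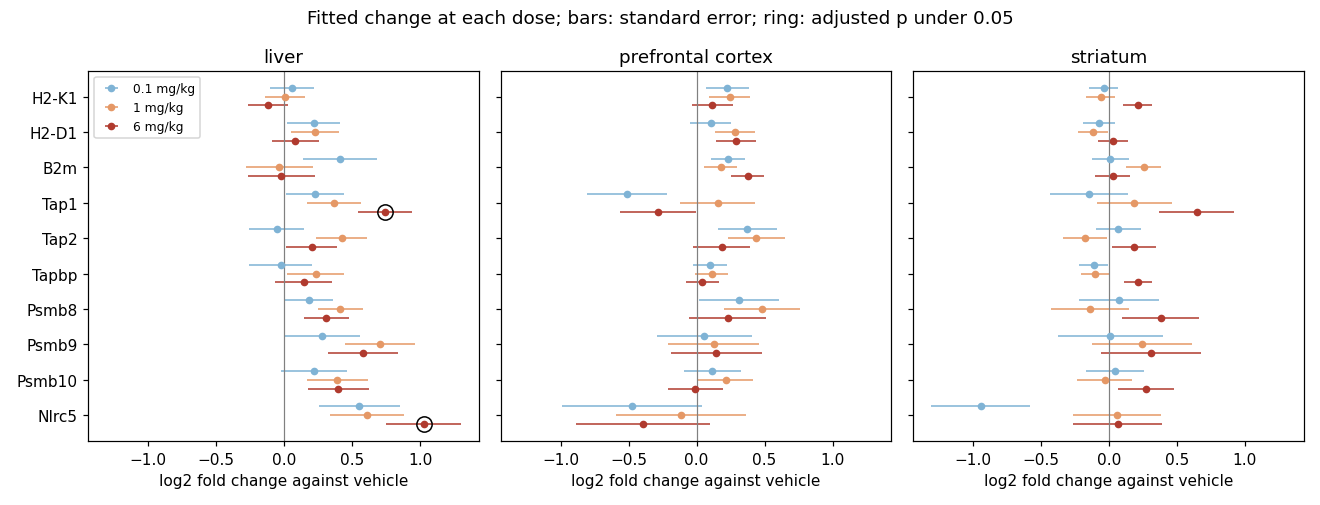
Fitted log2 fold change against vehicle (x axis) of each gene (y axis) at 0.1, 1 and 6 mg/kg, with a panel for each tissue, bars for the standard error and a ring at an adjusted p under 0.05. The 2 rings are Tap1 and Nlrc5 in the liver at 6 mg/kg.

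Single livers differed in which members were high. Each gene was standardised over the 20 livers and averaged over the 10 genes. The vehicle livers had values of -0.89, -0.99, -0.53 and 0.07 SD, and the 6 livers at 6 mg/kg ranged from -0.60 to 0.59 SD. Liver 52 at 6 mg/kg held the lowest H2-K1, H2-D1 and Tapbp of all livers together with a high Tap1 (39.04 CPM) and Nlrc5 (34.2 CPM). The genes outside the pathway whose log2 CPM followed this average most closely over the 20 livers included Smarcb1 (r = 0.86), Alg3 (0.846), Zfp593 (0.834) and Crybb3 (0.826). They were among the 5 with the highest Pearson r of all tested genes, the libraries share their dose groups and their GC slopes, and no p is given. With the dose group means subtracted, Ino80b (0.865), Rdh5 (0.802), Smarcb1 (0.799) and 1700056E22Rik (0.798) were among the leading 5.

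**Figure D4:**
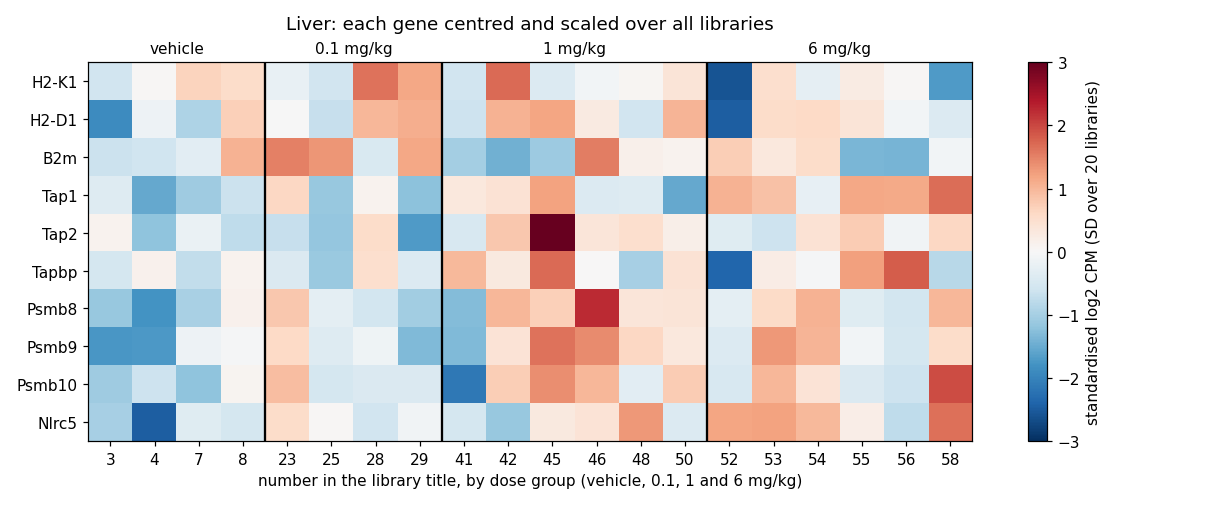
Log2 CPM of each gene (rows) in each liver library (columns, by title number and dose group), centred and divided by its SD over the 20 libraries, with red for high and blue for low. Liver 52 is blue for H2-K1, H2-D1 and Tapbp and red for Tap1 and Nlrc5.

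Lists of genes related to the pathway, and of interferon and class II genes beside it, were counted whole in the liver at 6 mg/kg, where 2.8% of all tested genes passed and 24.2% reached an unadjusted p under 0.05. Of 18 interferon-induced GTPases, which defend cells against intracellular microbes, 3 rose and 0 fell, with a median log2 fold change of 0.44 beside 0.023 over all genes. They were Gbp11, from 2.30 ± 0.197 to 17.3 ± 10.6 CPM (2.90 ± 0.393 SE, edgeR adjusted p = 0.00134), Gbp10 (1.21 ± 0.308 SE, adjusted p = 0.0409) and Gbp3 (0.92 ± 0.245 SE, adjusted p = 0.0452). Of 30 transcription regulators and interferon signalling genes 3 rose, namely Irf7 (1.09 ± 0.188 SE, edgeR adjusted p = 0.00932) and Irf9 (0.75 ± 0.139 SE, adjusted p = 0.0134), transcription factors of the interferon response, and Socs3 (1.66 ± 0.325 SE, adjusted p = 0.0134), a feedback inhibitor of cytokine signalling. The list had a median of 0.10.

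Of 11 loading chaperones and trimming enzymes 1 fell, Hspa5, an endoplasmic reticulum chaperone, from 619.8 ± 172 to 267.1 ± 104 CPM (-1.21 ± 0.267 SE, edgeR adjusted p = 0.0237). The list had a median of -0.34, with 3 of 11 lower at an unadjusted p under 0.05 and 2 of 11 above 0. In edgeR 0 of 20 constitutive proteasome and activator genes passed, with 6 lower at an unadjusted p under 0.05 and a median of -0.26. The smallest p there was that of Psma1, at 98.8 ± 4.6 and 61.3 ± 23.2 CPM (adjusted p = 0.0828 in edgeR). Of 15 tested nonclassical class I genes 0 passed in edgeR, with 3 higher and 2 lower at an unadjusted p under 0.05, and H2-T10 came closest (0.90 ± 0.269 SE, adjusted p = 0.0656). Of 11 tested class II presentation genes, which serve display of swallowed proteins by immune cells, 0 passed in edgeR and 1 was higher at an unadjusted p under 0.05, with a median of 0.38. In both brain regions 0 genes of these 6 lists passed in edgeR at 6 mg/kg, and each list had between 0 and 5 genes at an unadjusted p under 0.05. The genes with the smallest p within each list in the prefrontal cortex were H2-T10, Pdia3, Psma3, Irf7, Gbp3 and Ctss, with Gbp3 at 3.001 ± 0.767 and 4.59 ± 0.278 CPM (adjusted p = 0.444 in edgeR). In the striatum the first of each list were H2-T22, Lnpep, Psma3, Creb1, Gbp2 and Ctss, with Creb1 at 45.5 ± 3.07 and 37.0 ± 4.08 CPM (adjusted p = 0.208 in edgeR).

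In the prefrontal cortex 0 of the 10 genes passed at any dose in edgeR or DESeq2, as did 0% of tested genes at 0.1, 1 and 6 mg/kg. At 6 mg/kg 1 member, B2m, was higher at an unadjusted p under 0.05, which 9.27% of tested genes reached. B2m was at 62.95, 55.6, 53.2 and 46.9 CPM in vehicle and ran from 60.9 through 68.1 to 87.5 CPM at 6 mg/kg, with overlap (log2 difference 0.38 ± 0.121 SE, adjusted p = 0.348 in edgeR). Tap1, which rose in the liver, was at 3.12 ± 0.391 CPM in vehicle and 2.55 ± 1.01 at 6 mg/kg (-0.28 ± 0.281 SE). Nlrc5 rested on few counts, with 8 to 10 counts per vehicle library and 2 to 17 at 6 mg/kg.

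At 1 mg/kg 1 member, Tap2, and at 0.1 mg/kg 0 members had an unadjusted p under 0.05 in the prefrontal cortex, beside 8.29% and 6.43% of tested genes. For 6 against 0.1 mg/kg 0 members passed in either tool and 0 had an unadjusted p under 0.05, beside 0.108% and 10.1% of tested genes. The slope over dose rank passed for 0 members in either tool, with 2 at an unadjusted p under 0.05 (B2m and H2-D1), beside 0.0202% and 9.79% of tested genes.

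In the striatum 0 of the 10 genes passed against vehicle at any dose in edgeR or DESeq2, beside 0% of tested genes at each dose. All 10 log2 fold changes at 6 mg/kg were above 0, with a median of 0.213 beside 0.010 over all genes, and 2 reached an unadjusted p under 0.05, as did 15.7% of tested genes. Tap1 was at 4.49, 2.41, 2.47 and 3.39 CPM in vehicle and ran from 4.05 through 4.61 to 6.33 CPM at 6 mg/kg, with overlap through library 3 of the vehicle group (0.65 ± 0.275 SE, adjusted p = 0.269 in edgeR). Tapbp was at 43.8 ± 3.33 and 50.9 ± 3.62 CPM, with overlap (0.22 ± 0.103 SE, adjusted p = 0.314 in edgeR). Library totals also differed, at 10147296 to 10459212 counts in vehicle and 8553800 to 9197051 at 6 mg/kg, and the GC slope ran from -0.47 to 0.42 in vehicle and from 0.32 to 0.48 at 6 mg/kg. With the GC slope as a covariate all 10 values stayed above 0, with Tap1 at 0.90 (adjusted p = 0.348 in edgeR) and Tapbp at 0.09. With the clock index H2-D1 (-0.11), B2m (-0.12), Psmb8 and Psmb9 (-0.0028 each) lay below 0, and with 1 surrogate variable B2m (-0.0008) and Nlrc5 (-0.0051). The summed CPM of 4 oligodendrocyte genes ran from 3780 to 5760 in vehicle and from 5710 to 8120 at 6 mg/kg, and 3 red blood cell genes were all lower at an unadjusted p under 0.05, with a median log2 fold change of -1.36. Log2 fold changes were above 0 for 5 of 5 tested macrophage genes, 2 of them at an unadjusted p under 0.05, with sums of 190 to 254 CPM in vehicle and 211 to 304 CPM at 6 mg/kg. They were above 0 for 5 of 6 general leukocyte genes, 1 at an unadjusted p under 0.05, with sums of 115 to 169 CPM and 135 to 184 CPM. The 4 cortical neuron genes were all below 0 (median -1.15, sums of 71.3 to 1090 CPM and 62.4 to 438 CPM), and the 4 choroid plexus genes all above 0 (median 0.99, sums of 6.32 to 50.3 CPM and 3.91 to 135 CPM), with 0 of either list at an unadjusted p under 0.05. No gene of these 6 lists passed in edgeR, and the sums overlapped between the groups. The part of library totals and of these cells was not tested.

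Nlrc5 in the striatum was at 1.147, 0.867, 1.38 and 0.698 CPM in vehicle and 0.668, 0.430, 0.678, 0.435 and 0.426 CPM at 0.1 mg/kg. All 5 libraries at 0.1 mg/kg were below every vehicle library, which held for 1 of 10 members and for 1.31% of tested genes in either direction. These values rest on 4 to 7 counts per library against 7 to 14, and the difference did not pass (-0.95 ± 0.367 SE, unadjusted p = 0.0166 and adjusted p = 1 in edgeR). At 0.1 mg/kg 1 member and at 1 mg/kg 0 members had an unadjusted p under 0.05, beside 2.53% and 7.36% of tested genes.

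For 6 against 0.1 mg/kg in the striatum 0 of 10 members passed in edgeR, where 2.91% of genes passed, and 4 reached an unadjusted p under 0.05, which 22.3% of genes reached. Tapbp at 0.33 ± 0.0966 (SE) had the smallest p (adjusted p = 0.0603 in edgeR). It passed in DESeq2 (adjusted p = 0.0234), where 1104 of 15118 genes passed. Without library 28 of the 0.1 mg/kg group it passed as well (adjusted p = 0.0382 in edgeR), as did 442 of 15085 genes. Tap1, Nlrc5 and H2-K1 were at 0.79, 1.01 and 0.25 on the log2 scale, with adjusted p from 0.0835 to 0.135 in edgeR. The GC slope did not overlap between these groups, at -0.37 to -0.03 for 0.1 mg/kg and 0.32 to 0.48 for 6 mg/kg, and with it as a covariate 0 of 10 members passed in edgeR and 2 reached an unadjusted p under 0.05. The shares of 2.91% and 22.3% belong to the fit without this covariate, and no share over all genes is given for the fit with it. The slope over dose rank passed for 0 members in either tool, with 2 (Tap1 and Tapbp) at an unadjusted p under 0.05, beside 0% and 13.1% of tested genes. Over mg/kg instead of rank it passed for 3 members, Tapbp, Tap1 and H2-K1 (adjusted p from 0.0226 to 0.0418 in edgeR), as did 12.3% of tested genes.

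**Figure D5:**
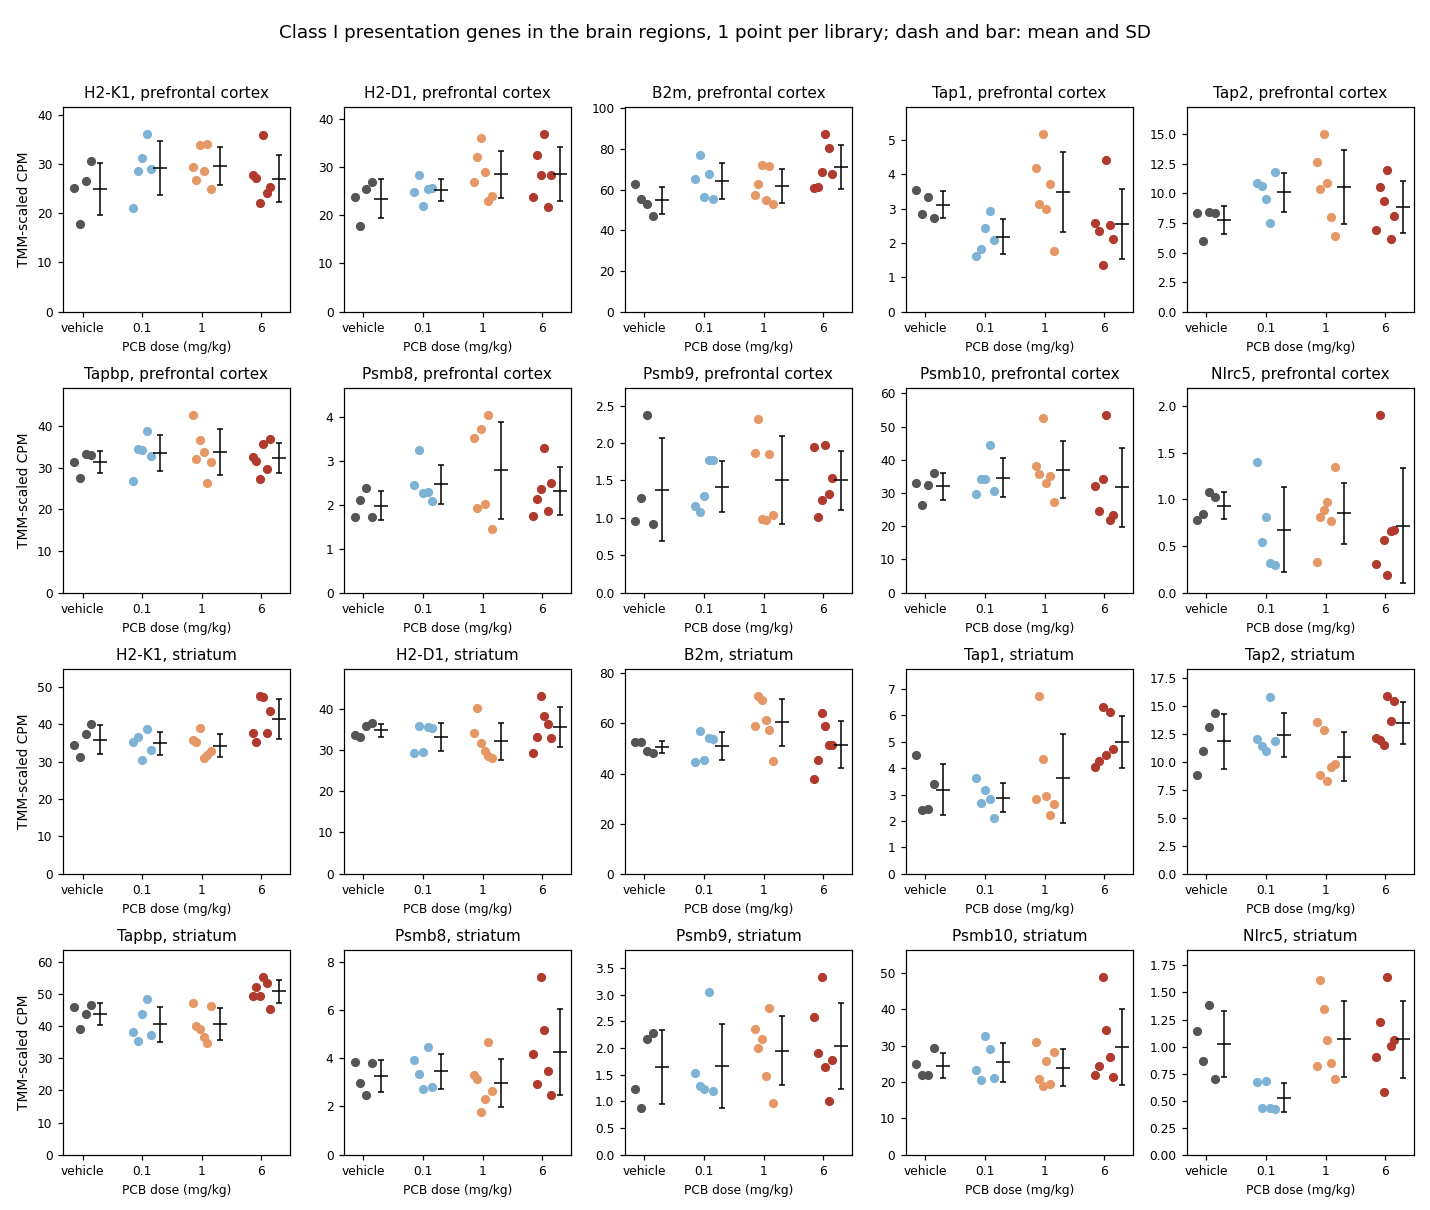
TMM-scaled CPM of the 10 genes in each library of the prefrontal cortex (top 2 rows) and striatum (bottom 2 rows) at 0 (vehicle), 0.1, 1 and 6 mg/kg, with the mean and SD beside each group of 4, 5, 6 and 6 points. The 5 Nlrc5 points at 0.1 mg/kg in the striatum lie below the vehicle points.

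In the brain regions the average of the 10 standardised genes was followed most closely by Polr2e (r = 0.862), Psmb4 (0.86), Svbp (0.857), Dpp3 (0.856) and Bola2 (0.855) in the 21 prefrontal cortex libraries, and by Dcaf8 (0.887), Cd81 (0.834), 2310061I04Rik (0.832), Snhg10 (0.832) and Rpusd3 (0.829) in the 21 striatum libraries. Psmb4 encodes a constitutive proteasome subunit. With the dose group means subtracted, Vamp8 (0.892), Micos10 (0.863), Svbp (0.862), Psmb4 (0.861) and Polr2e (0.859) led in the prefrontal cortex, and Snhg10 (0.84), Dcaf8 (0.826), Rps27l (0.809), Eif2b3 (0.802) and Rps3 (0.792) in the striatum.

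Whether 6 mg/kg acted alike on the members in a pair of tissues was tested with an interaction term in edgeR. Between liver and prefrontal cortex 0 of 10 members passed, beside 0.899% of genes, and 2 reached an unadjusted p under 0.05, as did 20% of genes, Tap1 with a difference of 1.01 ± 0.302 SE (adjusted p = 0.0914 in edgeR) and Nlrc5 with 1.41 ± 0.579 SE (adjusted p = 0.184). Tap1 passed in DESeq2 (adjusted p = 0.0177), where 938 of 14351 genes passed. It also passed without the libraries numbered 55 (adjusted p = 0.0243 in edgeR), where 762 of 14304 genes passed. Between liver and striatum 0 members passed in edgeR or DESeq2 and 0 had an unadjusted p under 0.05, beside 0.0277% and 14.3% of genes, and the Tap1 difference was 0.09 ± 0.278 SE. Between striatum and prefrontal cortex 0 members passed in either tool, beside 0% of genes, and the single member at an unadjusted p under 0.05 (6.43% of genes) was Tap1 at 0.92 ± 0.361 SE.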

How the data were processed

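The authors deposited 1 table of raw gene counts for each tissue. Per the submitters' processing notes, reads were checked with FastQC and aligned with HISAT2 to mm10. The counting tool, annotation and use of strand are not given in the sources used here. Labels name poly(A) capture or ribosomal RNA removal without saying which. Columns were matched to samples by title. Genes were named from RefSeq (GRCm38.p6; 99.95% of liver identifiers), and lengths and GC content came from GENCODE vM21.

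Counts were fitted per tissue over all 4 dose groups with edgeR 4.0.16 (filterByExpr, TMM, robust quasi-likelihood), and for a pair of tissues over the vehicle and 6 mg/kg libraries. P-values were adjusted by Benjamini-Hochberg over all genes, with a threshold of 0.05. Members and lists were chosen with earlier results of these data known. Besides the members, at most 3 passing genes with the smallest p were named per list, or the 1 with the smallest p. Cyp2b10, Cyp1a2, the immunoproteasome partners and the genes most alike in pattern belong to the same rule, while single libraries were singled out after values were seen. A gene among those most alike in the liver is not reported here. No pair of libraries of a group agreed within sampling noise (smallest chi-square per degree of freedom 2.94). Within a tissue each library has its own title number, nothing says that these are separate animals, and p-values measure the spread between these libraries alone. Alternatives were DESeq2 1.42.0, RLE size factors, other filters, only the groups compared, 1 surrogate variable (sva 3.50.0), a block for the title number, dose in mg/kg, and each replicate left out. GC slope and clock index as covariates were added after seeing the data. Fits were tested on simulated data. Total counts of 7381179 to 12135200 per library limit the precision of genes under about 10 counts.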

Additional observations from a re-analysis of the deposited data

Results flagged for a closer look

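In 7 of 120 sets of 4 to 6 libraries (10 genes in each dose group of each tissue) 1 library stood apart from the others by Dixon's 95% criterion, and chance flags about 1 in 20 sets, or 6.0 of 120. In vehicle livers B2m was at 2924 CPM in library 8 and at 1825 to 1996 CPM in the other 3. Psmb10 in livers at 0.1 mg/kg was at 108.4 CPM in library 23 and at 75.45 to 77.14 CPM in the rest. Tap2 was at 72.27 CPM in liver library 45 at 1 mg/kg, against 34.21 to 45.21 CPM in its group. In the prefrontal cortex of vehicle mice Tap2 was at 5.993 CPM in library 4 and at 8.331 to 8.426 CPM in the others. Nlrc5 in the prefrontal cortex at 6 mg/kg was at 1.904 CPM in library 53 and at 0.1876 to 0.6693 CPM elsewhere in the group. The striatum library 28 at 0.1 mg/kg stood apart for 2 genes, with Tap2 at 15.78 CPM (others 10.96 to 12.02) and Psmb9 at 3.047 CPM (others 1.192 to 1.527).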

How the results depend on the processing

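Of 3 counts of passing members between 1 and 9, 28 of 52 recomputations moved by over 1.5 times. Of 16 counts of 0, 7 of 293 recomputations left 0, and both counts of 10 stayed at 10 in all 18. For the liver at 6 mg/kg against vehicle the count of 2 became 0 with no filter on low counts, with the 2 groups alone, with the GC slope and with the clock index, 1 with 1 surrogate variable, and 0 to 2 with 1 library left out. The liver slope count of 2 became 1 over mg/kg and 0 to 2 with 1 library left out. In the striatum the count of 0 for 6 against 0.1 mg/kg became 1 with DESeq2, with the 2 groups alone and with 1 surrogate variable, and 0 to 1 with 1 library left out, and the slope count became 3 over mg/kg. Over all genes the calls for 6 against 0.1 mg/kg went from 440 to 1104, 668 and 1231 in the first 3 of these settings. The liver and prefrontal cortex interaction count of 0 became 1 with DESeq2, where 938 of 14351 genes passed, and 0 to 1 with 1 number left out. The cause was not tested.

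Same-numbered libraries of different tissues did not deviate together throughout. Between striatum and prefrontal cortex the mean r was 0.0938 over 21 numbers (lowest -0.0827), beside -0.02 with other numbers of the group, and 12 were best with their own. For liver with prefrontal cortex and with striatum the means were 0.00446 and 0.00379, beside -0.00105 and -0.00119. The numbers are not shown to pair libraries throughout, though the mean was higher for equal numbers between the brain regions. With the title number as a replicate block the count for striatum against prefrontal cortex in vehicle mice went from 2 to 4, adding H2-K1 (0.44, adjusted p = 0.0168 in edgeR) and Psmb10, which was lower in the striatum (-0.48, adjusted p = 0.0417). It was 0 to 2 with 1 number left out, and no other call changed under the block.

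Of 62 log2 fold changes of single genes, values that changed sign were all uncalled. With the GC slope as covariate they were, in the liver at 6 mg/kg, H2-D1 -0.21, B2m 0.12, Tap2 -0.12 and Psmb10 -0.30, and in the prefrontal cortex Psmb10 0.092. With the clock index they were H2-D1 -0.13, Psmb8 -0.19, Psmb9 -0.23 and Psmb10 -0.0219 in the liver, H2-K1 -0.0164 and Tapbp -0.0434 in the prefrontal cortex, and H2-D1 -0.11, B2m -0.12, Psmb8 -0.0028 and Psmb9 -0.0028 in the striatum. With 1 surrogate variable B2m was at -0.0008 and Nlrc5 at -0.0051 in the striatum. With 1 library left out, values at 6 mg/kg ran from -0.0178 to 0.20 for H2-D1 and -0.10 to 0.17 for B2m in the liver. In the prefrontal cortex they ran from -0.0142 to 0.23 for H2-K1, -0.0126 to 0.0873 for Tapbp, -0.0067 to 0.54 for Psmb9 and -0.23 to 0.0752 for Psmb10, and in the striatum from -0.0328 to 0.0807 for H2-D1, -0.0455 to 0.10 for B2m and -0.10 to 0.24 for Nlrc5. For striatum against prefrontal cortex in vehicle mice they ran from -0.20 to 0.0723 for Tap1, -0.18 to 0.39 for Psmb9 and -0.0853 to 0.24 for Nlrc5.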

Other observations

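The average of the 10 standardised genes, looked at by library after the values were seen, was highest in the prefrontal cortex in library 45 at 1 mg/kg (1.17 SD, 9 of 10 genes above their mean) and library 55 at 6 mg/kg (1.13 SD, 9 of 10). In the striatum it was highest in library 54 (1.40 SD, 8 of 10) and library 55 (1.19 SD, 9 of 10), both at 6 mg/kg. In the liver it was highest in library 45 at 1 mg/kg (0.96 SD, 8 of 10). Vehicle library 4 was lowest in the liver (-0.99 SD) and in the prefrontal cortex (-0.98 SD). The GC slope was 0.44 and 0.30 in prefrontal cortex libraries 45 and 55, 0.48 and 0.46 in striatum libraries 54 and 55, and 0.34 in liver library 45. In vehicle library 4 it was -0.17 in the liver and -0.39 in the prefrontal cortex. The part of the GC slope in these averages was not tested. Whether equal numbers in different tissues mark 1 animal is not stated in the labels.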
